A study of Rattus norvegicus with 9 samples.

Results

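The nitric oxide and cGMP pathway was followed in the superior mesenteric artery (SMA), the vessel that feeds most of the small intestine, through 10 genes chosen by symbol: Nos1, Nos2, Nos3, Arg1, Arg2, Ass1, Gucy1a3, Gucy1b3, Prkg1 and Pde5a. All 10 were among the 37203 gene rows of the count table, and 9 of them had enough counts to be among the 15482 genes tested. Nos2 did not. The libraries came from 8-week-old Sprague-Dawley (SD) rats that carried no engineered allele, in 3 groups of 3: normal, ischemia 1 h and ischemia 4 h. Ischemia was produced by bleeding through a catheter in the right femoral artery under sodium pentobarbital, so the whole animal lost blood and the SMA itself was not tied. Whether normal rats were anaesthetised or catheterised for a matching time is not stated in the sources used here. The series description gives 3 rats per group, though a passage of the study's methods can be read as individuals shared between conditions. The methods also state that rats were killed at the end of ischemia before the SMA was removed. The same rat could therefore not give both ischemic times. The p-values measure only the spread between these libraries. RNA was taken from whole artery pieces, and Gucy1a3 and Gucy1b3 are older symbols of the genes now called Gucy1a1 and Gucy1b1.

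Nitric oxide is made from arginine by the nitric oxide synthases, in the artery mainly by the endothelial enzyme Nos3. It diffuses into smooth muscle and binds soluble guanylate cyclase, a dimer of an alpha subunit (Gucy1a3) and a beta subunit (Gucy1b3), which then makes cGMP. cGMP activates the kinase Prkg1, which relaxes the muscle, and Pde5a breaks cGMP down. The arginases Arg1 and Arg2 draw on the same arginine, and Ass1 makes its precursor from citrulline.

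No member passed the test after ischemia. The ratio of the cyclase subunits separated the normal from the ischemic libraries, in a comparison too small for its test to pass. Within each library the counts of Gucy1a3 were 2.61 to 3.96 times those of Gucy1b3 in normal arteries, 1.18 to 1.83 times at 1 h and 1.41 to 2.29 times at 4 h. Gucy1a3 itself averaged 386 ± 170 CPM (library-scaled counts, 1 CPM being 12.1 to 17.9 counts; SD, n = 3) in normal arteries and 177 ± 66.2 at 1 h, while Gucy1b3 averaged 120 ± 66.0 and 115 ± 39.1. Ass1 was high in 3 ischemic libraries that also had the highest sums of sympathetic neuron and adrenal medulla markers. They were not the highest in the adrenal marker Pnmt. Their adipocyte markers were the highest by mean log2 CPM but not by sum.

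Total counts ran from 13114273 to 15504240 per library, and CPM used library sizes scaled by the TMM method. All 9 smooth muscle markers and all 10 endothelial markers had counts in every library, with summed levels of 10600 to 66300 and 776 to 1770 CPM. Transcripts of 14 sympathetic neuron markers summed to 8830 and 9040 CPM in replicates 1 and 3 at 1 h and to 9000 CPM in replicate 3 at 4 h. In the other 6 libraries the sum was 36.1 to 975 CPM. The same 3 libraries, called neuron-rich below, were also the highest in the 4 adrenal medulla markers, summing to 438 to 534 CPM against 3.28 to 50.3 CPM in the others. Pnmt, the adrenaline-making enzyme of that list, was at no more than 1.49 CPM in any library and was not highest in these. By mean log2 CPM the adipocyte markers were highest there too, at 6.09 to 6.99 against 3.21 to 5.30, although the largest summed level was in normal replicate 1. Among them Ucp1, a marker of brown fat, was at 85.1, 2.83 and 36.6 CPM in the 3 libraries and at no more than 0.0668 CPM in the others. In replicate 3 at 4 h, Adipoq, Plin1, Fabp4 and Cfd were at 64.4, 96.9, 536 and 80.0 CPM. Normal replicate 1 was higher in all of these, at 216, 198, 1480 and 266 CPM, and lower in Lep and Ucp1. The part of adrenal and fat tissue in the results was not tested, and leaving out these libraries leaves out all 3 kinds of marker together. Of the ischemic libraries these 3 were also the lowest in smooth muscle markers, summing to 12200 to 24300 CPM against 44700 to 66300 CPM in the others. Leaving them out therefore shifts smooth muscle content as well, and its part was not tested either. Schwann cell markers summed to 113 to 3850 CPM, adipocyte markers to 283 to 2170 CPM, macrophage markers to 26.2 to 167 CPM and red cell markers to 64.1 to 396 CPM. Neutrophil markers summed to 0.517 to 6.76 CPM and lymphocyte markers to 0.0827 to 36.1 CPM. Normal replicate 1 differed from the other normal libraries in content. Its smooth muscle markers summed to 10600 CPM, against 46100 and 46600 CPM in normal replicates 2 and 3. It held the highest Schwann cell sum, 3850 CPM against 113 and 636 CPM in those replicates, and the highest endothelial sum, 1770 CPM.

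A gene was called at a Benjamini-Hochberg adjusted p under 0.05, over all genes tested with the edgeR quasi-likelihood test, and a fold change over 1.5. By this rule 0 of the 9 tested members were called at 1 h, where 0.0581% of all genes were called, and 0 at 4 h, where 0.0904% were. Between 4 h and 1 h 0% of all genes were called, and over the 3 groups together 0.0388% were, again with 0 members in each. At an unadjusted p under 0.05 there were 2 members at 1 h (background 16.7%), namely Ass1 and Gucy1a3, and 1 at 4 h (background 12.4%), namely Arg1. There were 0 members at that level between 4 h and 1 h (background 2.58%) and 0 over the 3 groups (background 11.4%). DESeq2, run as an alternative, called 0 members in each contrast (it gave Arg2 no adjusted p at 1 h), against 4.8% of the genes it tested at 1 h, 4.08% at 4 h, 0% between 4 h and 1 h, and 4.39% over the 3 groups. Members whose 3 ischemic libraries all lay above the 3 normal ones numbered 2 at 1 h (background 12.8%) and 0 at 4 h (background 7.93%). Those whose ischemic libraries all lay below numbered 1 at 1 h (background 13.5%) and 1 at 4 h (background 10.8%). Between 4 h and 1 h the groups of all 9 members overlapped, while 6.24% of genes did not overlap there. The median log2 fold change of the members was -0.22 at 1 h and 0.03 at 4 h, beside -0.0076 and 0.03 over all genes tested. Since the arteries were measured whole, fewer cells of a type and less RNA per cell cannot be told apart in any of these values.

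**Figure D1:**
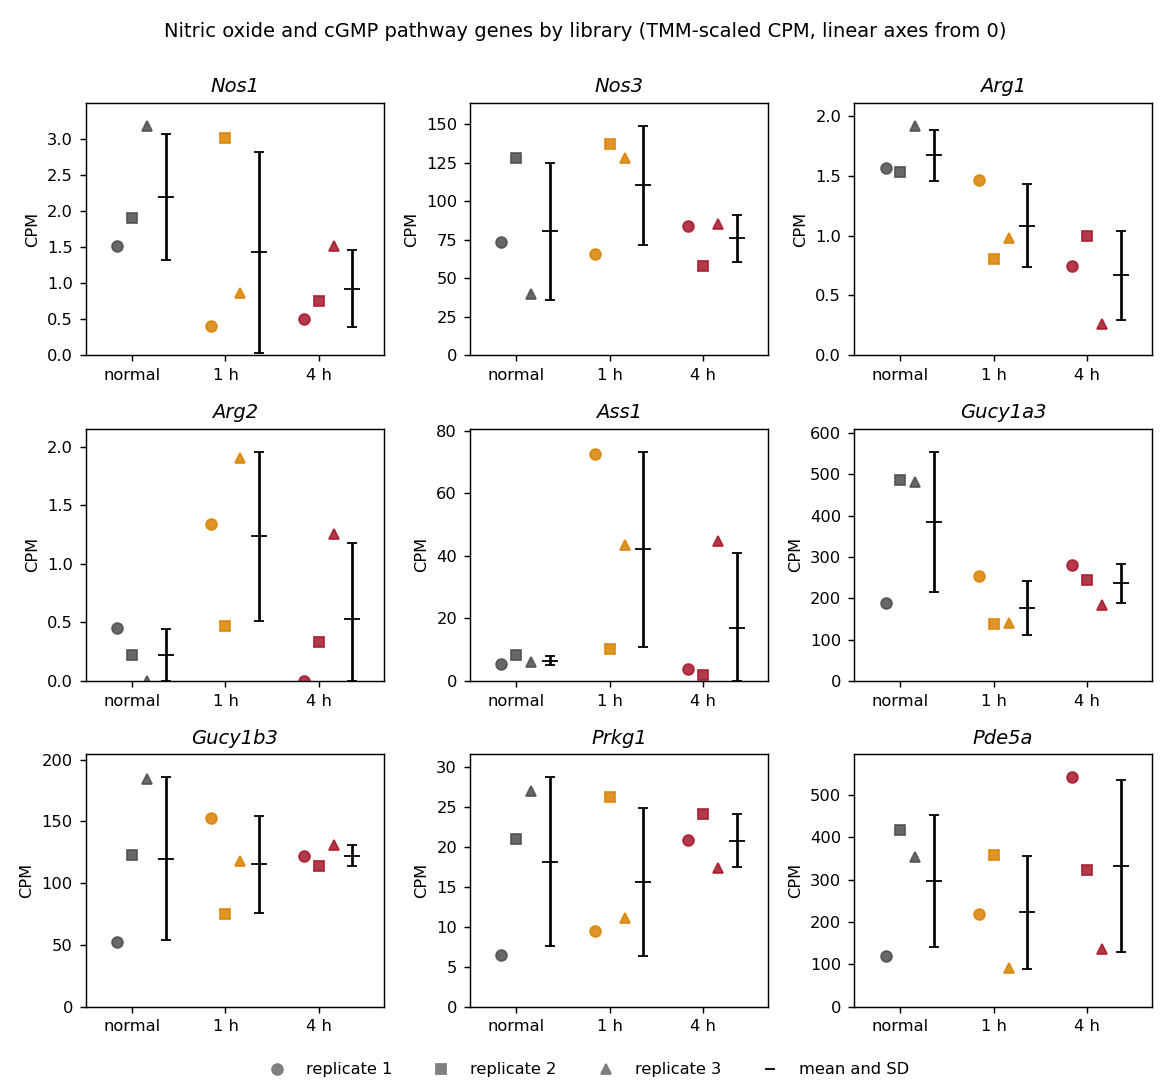
Each panel plots 1 of the 9 tested genes, with the group on the x axis and CPM from 0 on the y axis; points are libraries, shaped by replicate number, and bars are the mean and SD of 3, ending at the axis where they would pass below 0. The 3 normal Arg1 values, 1.53 to 1.92 CPM, lie above all 6 ischemic ones, and the tall Ass1 points are 2 libraries at 1 h and 1 at 4 h.

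Both cyclase genes are on the minus strand of chromosome 2 in the RefSeq assembly GRCr8, with 1 other gene, LOC120101147, between them. The 250 bases before each start site are shown because the 2 subunits form a single enzyme yet did not keep a constant ratio of counts here. The sequences are from RefSeq, read 5′ to 3′ on the gene's strand, with CCAAT on either strand and GGGCGG on either strand in capitals. In Gucy1a3 the pair of matches overlap.
Gucy1a3, chr2:169779624-169779873, minus strand: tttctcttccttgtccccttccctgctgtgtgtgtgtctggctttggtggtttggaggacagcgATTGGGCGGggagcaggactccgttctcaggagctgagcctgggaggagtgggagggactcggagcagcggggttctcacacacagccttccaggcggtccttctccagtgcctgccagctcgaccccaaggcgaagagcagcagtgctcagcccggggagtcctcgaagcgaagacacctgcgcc
Gucy1b3, chr2:169696988-169697237, minus strand: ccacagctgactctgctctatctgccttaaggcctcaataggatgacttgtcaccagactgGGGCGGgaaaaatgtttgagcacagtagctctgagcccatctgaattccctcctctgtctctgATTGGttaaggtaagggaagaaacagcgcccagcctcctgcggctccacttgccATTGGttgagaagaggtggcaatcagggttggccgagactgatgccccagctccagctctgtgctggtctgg
CCAAT, the letters bound by the factor NF-Y, was found 1 time before Gucy1a3 and 2 times before Gucy1b3, and 34% of 33469 promoters of this length hold it. GGGCGG, the GC box bound by Sp1, was found 1 time in each, and 30.5% of promoters hold it. A further 5 motifs had no match in either window: the cAMP response element TGACGTCA, the hypoxia response core ACGTG, the AP-1 site TGANTCA, the glucocorticoid response element arm AGAACA, and the CArG box of smooth muscle genes. They are held by 1.59%, 16.6%, 6.34%, 17.5% and 1.5% of promoters.

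Gucy1a3 codes for the alpha subunit of soluble guanylate cyclase. It was at 189, 486 and 481 CPM in normal replicates 1 to 3, at 253, 137 and 140 CPM at 1 h, and at 280, 244 and 185 CPM at 4 h. Normal replicates 2 and 3 stood above every ischemic library, while normal replicate 1 lay among them, so the groups overlapped. The fitted log2 fold change was -1.13 (SE 0.414, 95% interval -2.08 to -0.18) at 1 h, with an unadjusted p of 0.0254 and an edgeR adjusted p of 0.273. At 4 h it was -0.71 (SE 0.411, 95% interval -1.65 to 0.23, edgeR adjusted p = 0.522).

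Gucy1b3 codes for the beta subunit, which carries the haem that binds nitric oxide. Its levels were 52.5, 123 and 184 CPM in normal arteries, 153, 74.8 and 118 CPM at 1 h, and 122, 114 and 131 CPM at 4 h. Normal libraries held both its lowest and its highest value. The log2 fold change was -0.056 (95% interval -1.04 to 0.93) at 1 h and 0.032 (95% interval -0.95 to 1.02) at 4 h, and the sign changed with library scaling at both times. These intervals reach differences nearly as large as the one fitted for Gucy1a3 at 1 h.

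The ratio of the 2 subunits was compared because it is taken within a library and does not depend on scaling. Counts of Gucy1a3 over Gucy1b3 were 3.59, 3.96 and 2.61 in normal arteries, 1.65, 1.83 and 1.18 at 1 h, and 2.29, 2.13 and 1.41 at 4 h. All 6 ischemic libraries lay below all 3 normal ones, and replicate 3 was the lowest in each group. The lowest 3 of the 9 ratios, 1.65, 1.18 and 1.41, were those of the neuron-rich libraries, and the other 3 ischemic libraries were at 1.83, 2.29 and 2.13. For comparison, and chosen after these values were seen, 1.24% of the other tested genes set over Gucy1b3 separated the 9 libraries in this direction, and so did Gucy1a3 set over 8.16% of the other tested genes. On the log2 scale the mean was 1.74 ± 0.315 in normal arteries and 0.613 ± 0.332 at 1 h (SD, n = 3 each), a difference of -1.12 with an exact two-sided permutation p of 0.1. At 4 h it was 0.926 ± 0.375, a difference of -0.81 with an exact permutation p of 0.1. With 3 libraries against 3, 0.1 is the smallest p this test can give, so it cannot pass 0.05 and the difference is a description. Both comparisons share the 3 normal libraries. Without the 3 neuron-rich libraries, which leaves 1 library at 1 h, the differences were -0.86 and -0.60. The counts are per gene and not per length, so a ratio above 1 does not say that the alpha transcript was the more abundant.

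**Figure D2:**
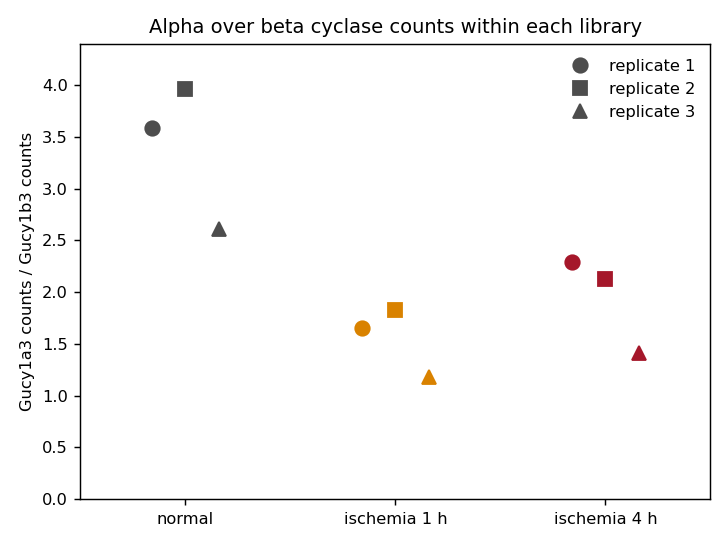
The x axis gives the group and the y axis, from 0, the Gucy1a3 counts divided by the Gucy1b3 counts of the same library; each point is 1 library. The 3 normal libraries lie at 2.61 to 3.96 and the 6 ischemic ones at 1.18 to 2.29.

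Prkg1 codes for the cGMP-dependent kinase that lowers calcium and calcium sensitivity in smooth muscle. It was at 6.44, 21.0 and 27.0 CPM in normal arteries, at 9.50, 26.3 and 11.1 CPM at 1 h, and at 20.9, 24.1 and 17.4 CPM at 4 h. The groups overlapped, with edgeR adjusted p of 0.848 at 1 h and 0.907 at 4 h. Pde5a codes for the phosphodiesterase blocked by sildenafil. It was at 120, 417 and 353 CPM in normal arteries, at 218, 359 and 91.4 CPM at 1 h, and at 542, 322 and 136 CPM at 4 h. Its groups overlapped as well, with log2 fold changes of -0.42 (95% interval -1.95 to 1.12) and 0.17 (SE 0.67) at 1 h and 4 h.

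Pde5a and the smooth muscle markers varied together over the libraries. Its log2 CPM had an SD of 0.898 over the 9 libraries, against 0.279 once the mean log2 CPM of the smooth muscle markers was subtracted. For Prkg1 the SD went from 0.727 to 0.455. For the cyclase subunits it went up, from 0.673 to 0.803 for Gucy1a3 and from 0.54 to 0.857 for Gucy1b3. Relative to the smooth muscle markers, Gucy1a3 was 0.82 lower on the log2 scale at 1 h (exact permutation p = 0.4) and 1.15 lower at 4 h (exact permutation p = 0.1, the smallest possible; adjusted p = 0.6 over 12 comparisons of members with marker lists). At 4 h all 3 ischemic libraries lay below the normal ones by this measure, and at 1 h the groups overlapped. For Gucy1b3, Prkg1 and Pde5a the differences from normal ranged from -0.41 to 0.31, with overlapping groups.

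Likeness of pattern was measured as the root mean square difference of centred log2 CPM over the 9 libraries, among 10447 genes averaging at least 5 CPM. The genes most like Gucy1a3 were Fam110b at 0.138, Hoxc8 at 0.164 and Abracl at 0.234. Those most like Pde5a were Npepo at 0.142, Flna at 0.148 and Pkdcc at 0.153, where Flna codes for the actin crosslinker filamin A. Gucy1b3 was nearest to B4galt2 at 0.203, Gys1 at 0.215 and Mmd at 0.231, and Prkg1 to Tns1 at 0.202, Cped1 at 0.207 and Foxc1 at 0.213. The subunits did not appear in each other's lists, but with 3 places for 10447 genes such an absence says little about how alike they were. The same 9 libraries, with their differing cell content, underlie all of these distances.

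Nos3 codes for the endothelial synthase that supplies most of the nitric oxide of an artery. It was at 73.8, 128 and 39.7 CPM in normal arteries, at 65.8, 137 and 128 CPM at 1 h, and at 83.9, 58.2 and 85.3 CPM at 4 h. The normal group alone spanned most of this range, and the groups overlapped. The log2 fold change was 0.45 (95% interval -0.55 to 1.45) at 1 h and -0.085 (95% interval -1.08 to 0.91) at 4 h, with edgeR adjusted p of 0.582 and 0.954. Relative to the endothelial markers Nos3 was 0.91 higher on the log2 scale at 1 h (exact permutation p = 0.2) and 0.54 higher at 4 h (exact permutation p = 0.4), with overlapping groups. The SD of its log2 CPM over the 9 libraries was 0.594, and 0.651 once these markers were subtracted.

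Nos1 codes for the neuronal synthase. Its levels were 1.51, 1.90 and 3.18 CPM in normal arteries, 0.401, 3.01 and 0.860 CPM at 1 h, and 0.496, 0.746 and 1.52 CPM at 4 h, from 6 to 45 counts per library. The 2 libraries richest in neuron transcripts at 1 h held the lowest Nos1 of that group, and the library rich in them at 4 h held the highest of its group. The log2 fold change was -0.62 (SE 0.759) at 1 h and -1.23 (SE 0.776) at 4 h, with edgeR adjusted p of 0.671 and 0.548. Relative to the neuron markers it differed from normal by -5.71 at 1 h (exact permutation p = 0.2) and -1.35 at 4 h (exact permutation p = 0.7), with overlapping groups. The mean log2 CPM of these markers ran from -0.54 to 8.91 over the 9 libraries, while Nos1 spanned 2.62. Its SD went up from 0.948 to 4.01 once the markers were subtracted. Most of the relative difference at 1 h therefore lies in the markers and not in Nos1.

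Nos2 codes for the inducible synthase that activated macrophages make in quantity. It had 1 count in normal replicate 1 and 1 count in replicate 1 at 1 h, and 0 counts in the other 7 libraries. A count of 0 allows up to 3 counts, or 0.184 to 0.249 CPM in these 7 libraries, for counting error only, and no fold change was taken.

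**Figure D3:**
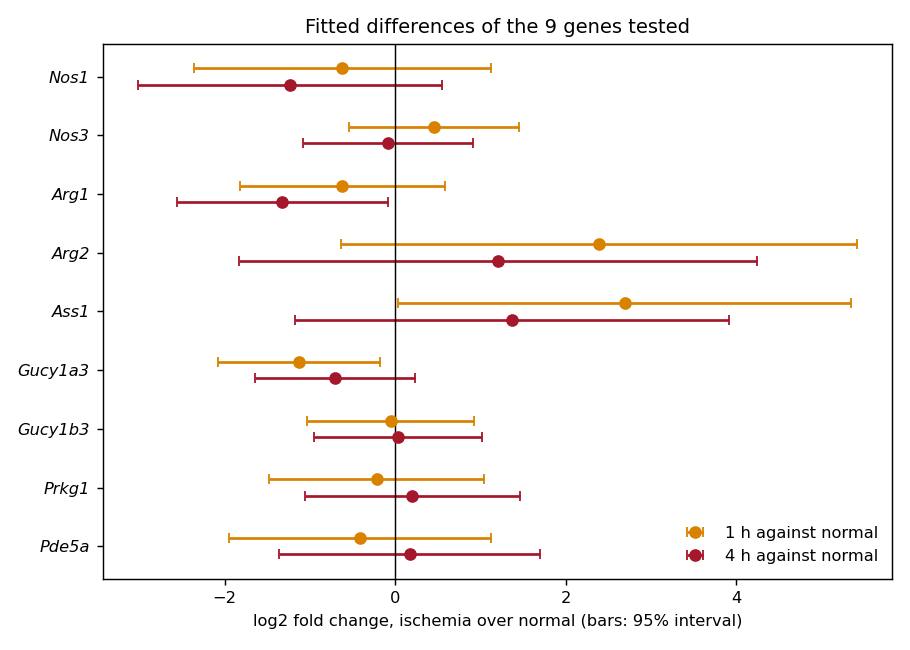
The x axis gives the fitted log2 fold change of ischemia over normal and the y axis the 9 tested genes; points are the edgeR estimates at 1 h and 4 h and bars their 95% intervals. The intervals clear of 0 are those of Ass1 and Gucy1a3 at 1 h and Arg1 at 4 h, none of which passed the adjustment over all genes.

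Ass1 codes for argininosuccinate synthase, which with the lyase Asl returns citrulline to arginine. It was at 5.26, 8.17 and 6.13 CPM in normal arteries, at 72.6, 10.2 and 43.6 CPM at 1 h, and at 3.80, 1.99 and 44.6 CPM at 4 h. All 3 libraries at 1 h lay above the normal ones, while at 4 h replicate 3 lay above and replicates 1 and 2 below. At 1 h the fitted log2 fold change was 2.69 (SE 1.16, 95% interval 0.037 to 5.34, edgeR adjusted p = 0.296), and at 4 h it was 1.37 (SE 1.11, edgeR adjusted p = 0.631). The 3 high libraries were the 3 with neuron markers at 8830 to 9040 CPM. With the neuron score as a covariate the estimates were 0.46 (SE 1.06) at 1 h and -0.14 (SE 0.838) at 4 h. Without those libraries they were 0.65 (SE 0.492) at 1 h, where 1 library then remained, and -1.15 (SE 0.427) at 4 h. The genes nearest to Ass1 in pattern were A4galt at 0.316, Ankrd6 at 0.369 and Ric3 at 0.373.

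Arg1 codes for the cytosolic arginase. It was at 1.57, 1.53 and 1.92 CPM in normal arteries, at 1.47, 0.802 and 0.983 CPM at 1 h, and at 0.744, 0.995 and 0.264 CPM at 4 h. All ischemic libraries were below the normal ones, although replicate 1 at 1 h was close to them. These levels rest on 21 to 28 counts per normal library and on 4 to 22 per ischemic library. The log2 fold change was -0.62 (SE 0.523, edgeR adjusted p = 0.527) at 1 h and -1.33 (SE 0.54, 95% interval -2.56 to -0.088, edgeR adjusted p = 0.366) at 4 h. With the neuron score as a covariate the estimates were -0.20 (SE 0.626) at 1 h and -1.43 (SE 0.514) at 4 h. Without the 3 neuron-rich libraries they were -1.04 (SE 0.736) at 1 h, where 1 library then remained, and -0.92 (SE 0.566) at 4 h.

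Arg2 codes for the mitochondrial arginase. Its counts were 8, 3 and 0 in normal arteries, 20, 7 and 31 at 1 h, and 0, 4 and 19 at 4 h, which is 0 to 1.90 CPM. The highest 3 values were again in the libraries rich in neuron transcripts. The log2 fold change was 2.39 (SE 1.32, edgeR adjusted p = 0.35) at 1 h and 1.20 (SE 1.33, edgeR adjusted p = 0.729) at 4 h, and with the neuron score as a covariate it was 0.90 and 0.60. Between 4 h and 1 h no member of the whole set had an edgeR adjusted p below 0.856.

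**Figure D4:**
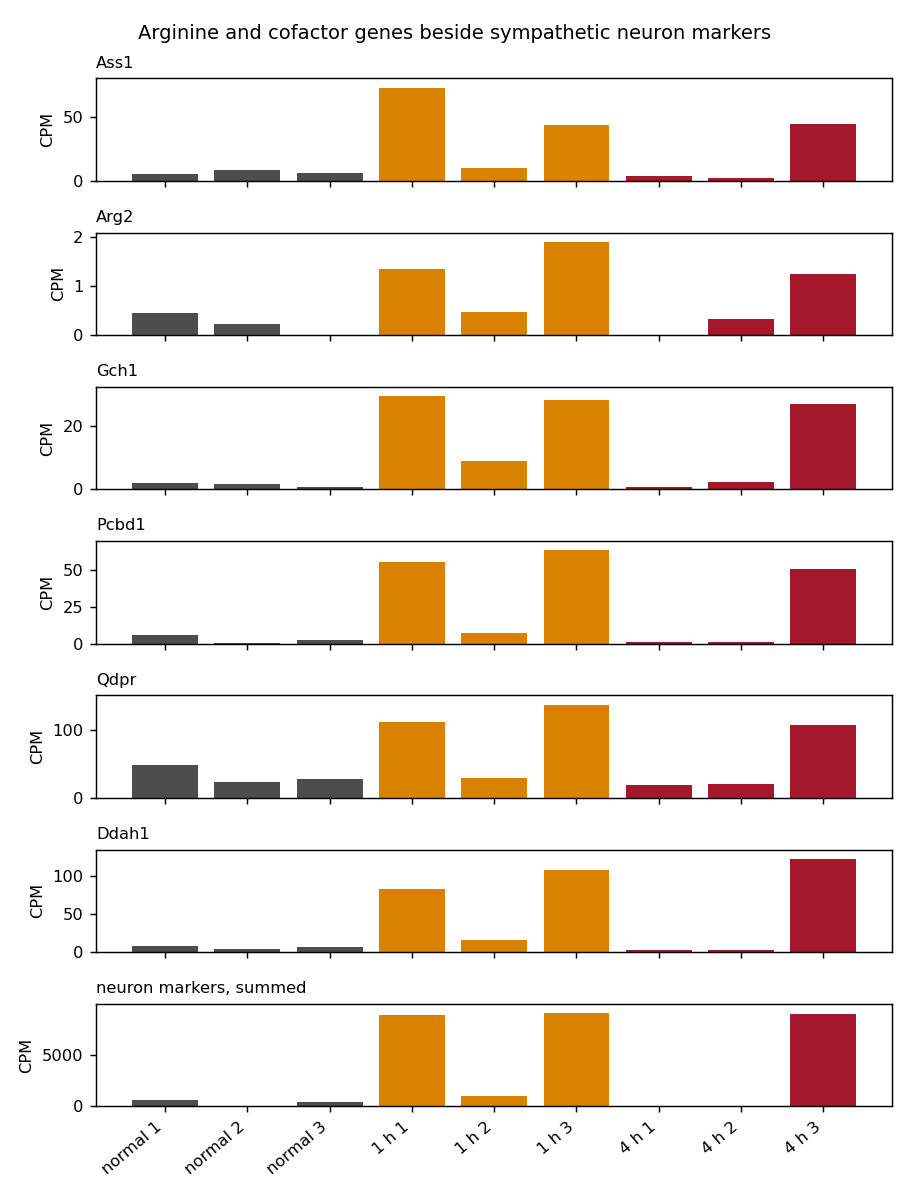
Each panel plots CPM from 0 for the 9 libraries named on the x axis: Ass1, Arg2, 4 genes of cofactor and methylarginine metabolism, and the summed CPM of the 14 sympathetic neuron markers. The tallest 3 bars of every panel are replicates 1 and 3 at 1 h and replicate 3 at 4 h.

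Nitric oxide synthase needs the cofactor tetrahydrobiopterin, and the synthases are inhibited by methylated arginines that Ddah1 and Ddah2 degrade. Gch1, the first enzyme of tetrahydrobiopterin synthesis, was at 1.90, 1.53 and 0.886 CPM in normal arteries, at 29.2, 9.02 and 28.1 CPM at 1 h, and at 0.744, 2.32 and 26.7 CPM at 4 h. All libraries at 1 h lay above normal, and at 4 h the neuron-rich replicate 3 stood alone. At 1 h its log2 fold change was 3.93 (SE 1.23, edgeR adjusted p = 0.234), and 1.85 (SE 0.864) with the neuron score as a covariate. Without the neuron-rich libraries it was 2.66 (SE 0.696) at 1 h, where 1 library then remained, and 0.11 at 4 h. Sympathetic neurons also use this cofactor to make noradrenaline. Pcbd1 and Qdpr, which recycle the cofactor, and Ddah1 were singled out after their values were seen: in the 3 neuron-rich libraries they were at 50.8 to 63.3, 107 to 137 and 83.0 to 122 CPM. In the other 6 libraries they did not exceed 7.09, 47.7 and 15.6 CPM.

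Of 65 genes listed as the wider pathway, 63 were in the table and 56 were tested, with 0 called by edgeR in any contrast. At an unadjusted p under 0.05 there were 8 higher and 2 lower at 1 h, and 6 higher and 1 lower at 4 h, close to the 16.7% and 12.4% of all genes at that level. DESeq2 called 2 of them at 1 h, Slc7a5 and Slc7a1, and 1 at 4 h, Slc7a5, beside 4.8% and 4.08% of all genes it tested. Their median log2 fold change was 0.106 at 1 h and 0.135 at 4 h.

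Slc7a1 codes for CAT1, the main carrier of arginine into vascular cells. It was at 8.68, 13.5 and 13.7 CPM in normal arteries, at 38.7, 45.9 and 46.1 CPM at 1 h, and at 21.6, 15.4 and 43.8 CPM at 4 h. Every ischemic library lay above every normal one, and at 4 h the neuron-rich replicate 3 was well above the other pair. Its fitted log2 fold change was 1.87 (SE 0.387, edgeR adjusted p = 0.159) at 1 h and 1.17 (SE 0.38, edgeR adjusted p = 0.265) at 4 h. Without the 3 neuron-rich libraries it was 1.95 (SE 0.364) at 1 h, where 1 library then remained, and 0.64 (SE 0.311) at 4 h. Slc7a5, a carrier of large neutral amino acids, was at 7.89, 10.9 and 11.7 CPM in normal arteries, at 59.9, 208 and 112 CPM at 1 h, and at 47.4, 15.9 and 56.5 CPM at 4 h. Its groups did not overlap with normal at either time. Fitted log2 fold changes were 3.63 (SE 0.596, edgeR adjusted p = 0.117) at 1 h and 1.97 (SE 0.559, edgeR adjusted p = 0.212) at 4 h.

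Ddah2 was at 144, 175 and 143 CPM in normal arteries and at 106, 52.2 and 64.7 CPM at 1 h, with all 3 libraries below normal, a log2 fold change of -1.05 (SE 0.364) and an edgeR adjusted p of 0.261. At 4 h it was at 129, 177 and 73.3 CPM and overlapped with normal. Hsp90aa1, a chaperone that binds Nos3, had a log2 fold change of 1.53 (SE 0.526, edgeR adjusted p = 0.26) at 1 h. Cav1, the caveolar protein that holds Nos3 inactive, was at 688 to 947 CPM in normal arteries and at 414 to 730 CPM at 1 h (edgeR adjusted p = 0.322). Gchfr, a regulator of Gch1, overlapped with normal at 4 h, at -0.55 on the log2 scale and -0.15 without normal replicate 1. At 1 h its libraries all lay below the normal ones (log2 fold change -0.66, edgeR adjusted p = 0.425).

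Npr1, the receptor cyclase for atrial natriuretic peptide, makes cGMP without nitric oxide. It was at 48.8, 31.2 and 28.4 CPM in normal arteries, at 24.8, 23.9 and 13.3 CPM at 1 h, and at 22.8, 20.7 and 13.6 CPM at 4 h. All 6 ischemic libraries lay below all normal ones. Fitted log2 fold changes were -0.81 (SE 0.332, edgeR adjusted p = 0.29) at 1 h and -0.92 (SE 0.333, edgeR adjusted p = 0.314) at 4 h. Without normal replicate 1, the highest, these were -0.53 and -0.65. That library also had the lowest smooth muscle sum and the highest Schwann cell and endothelial sums, and the part of its content was not tested.

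Downstream of cGMP, Rgs2, a brake on G protein signalling that Prkg1 activates, was at 13.3, 16.2 and 44.5 CPM in normal arteries and at 40.4, 105 and 46.8 CPM at 4 h (edgeR adjusted p = 0.334). The cation channel Trpc6 was at 1.51, 1.97 and 3.03 CPM in normal arteries and at 10.1, 3.48 and 3.17 CPM at 4 h (edgeR adjusted p = 0.334). Rgs2 overlapped with normal at 4 h and Trpc6 did not. Their log2 fold changes of 1.38 and 1.36 at 4 h were 0.82 without replicate 2 and 0.59 without replicate 1 of that group. At 1 h Trpc6 was at 5.69, 6.48 and 4.48 CPM, all above normal (log2 fold change 1.35, edgeR adjusted p = 0.279), and Rgs2 overlapped with normal. Of the other phosphodiesterases, Pde1b had a log2 fold change of -0.75 at 1 h (edgeR adjusted p = 0.311) and of -0.43 without normal replicate 2. Pde10a and Pde11a, singled out after their values were seen, went the other way. Their log2 fold changes were 2.85 (SE 1.04) and 4.19 (SE 1.83) at 1 h (edgeR adjusted p = 0.271 and 0.3), without overlap with normal. At 4 h they were 2.17 and 2.90, with overlapping groups. Pde10a and Pde11a averaged 1.67 and 0.26 CPM in normal arteries. At 4 h Pde10a ranged from 1.16 to 18.8 CPM around a mean of 7.55, and Pde11a from 0 to 5.88 CPM around 1.99.

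Pde2a, which cGMP itself stimulates, was at 151, 59.7 and 58.3 CPM in normal arteries and at 17.2, 52.6 and 52.2 CPM at 4 h. Its log2 fold change was -1.14 (edgeR adjusted p = 0.404), and -0.54 without normal replicate 1. Pde1c was at 14.1, 3.58 and 2.51 CPM in normal arteries and at 1.07, 2.07 and 6.73 CPM at 4 h. Its log2 fold change of -1.02 (edgeR adjusted p = 0.634) rested on the same library and was 0.12 without it. By role, 6 of 7 cofactor genes and 7 of 10 genes of arginine and methylarginine handling had a fitted level above normal at 1 h, and 3 of 10 genes of the kinase and its targets did, where 49.4% of all genes lay above normal. At 4 h these counts were 6 of 7, 7 of 10 and 8 of 10, beside 52.3% of all genes. Such counts include log2 fold changes near 0, as for Asl at 0.0092 at 1 h and Itpr1 at 0.037 at 4 h. Their difference from the shares of all genes was not tested. The larger of the remaining roles lay nearer those shares at 1 h and 4 h. Synthase partners and regulators stood at 5 of 11 and 6 of 11, and phosphodiesterases and export at 6 of 12 and 7 of 12. Guanylate cyclases stood at 2 of 3 and 3 of 3, and natriuretic peptides and receptors at 1 of 3 and 0 of 3. Of the 7 cofactor genes 1 reached an unadjusted p under 0.05 at each time, and Gch1, Pcbd1 and Qdpr among them were highest in the neuron-rich libraries.

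**Figure D5:**
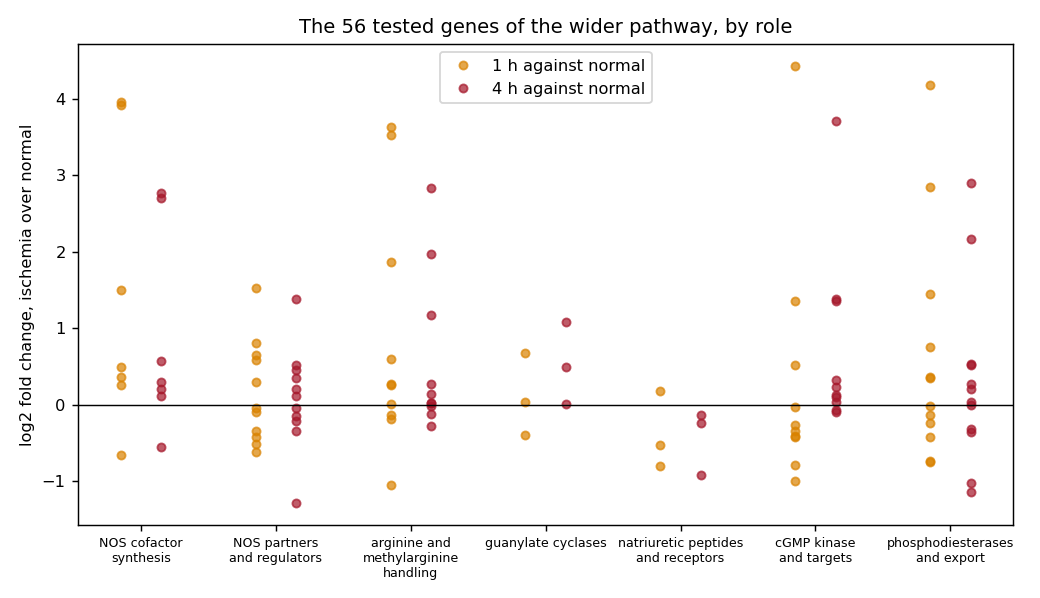
The x axis groups the 56 tested genes of the wider pathway by role and the y axis gives the log2 fold change over normal; each point is 1 gene at 1 h or 4 h. The points above 3.5 at 1 h include Gch1 at 3.93 and Slc7a5 at 3.63, and the genes of most roles lie on both sides of 0.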

How the data were processed

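The authors deposited raw counts per gene symbol for the 9 libraries (Illumina HiSeq X, standard Illumina protocol). Per the labels, the submitters' processing notes name HISAT2 with no version; the counting program, genome build, annotation and use of strand are not given in the sources used here. The methods of the study describe microarrays for these samples, but the table holds whole numbers, 13156 of 37203 rows hold no count, and the values were analysed as counts. No libraries were copies (lowest chi-square per degree of freedom 29.9).

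In R 4.3.3, the quasi-likelihood F-test of edgeR 4.0.16 (filterByExpr, TMM, glmQLFit, glmQLFTest) used every library and a group term alone, with Benjamini-Hochberg adjustment over 15482 genes. SE is the log2 fold change divided by the square root of F, and the biological coefficient of variation was 51.6%. CPM used TMM-scaled sizes, and log2 CPM a prior count of 2. Ratios within libraries were compared by exact two-sided permutation. The neuron score is the mean log2 CPM of 14 sympathetic neuron markers. The fit was tested on simulated data. Names were matched to RefSeq GRCr8 (8 members by symbol, 2 by synonym), and 7 members had a promoter sequence there. Of the wider list, the 4 highest and 4 lowest by p were named in each contrast with normal, at 1 CPM or more. The members and lists were chosen with earlier results of these data known. Alternatives were other scalings, no filter, DESeq2 1.42.0, fewer libraries, a replicate block and the neuron covariate.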

Additional observations from a re-analysis of the deposited data

How the results depend on the processing

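Members were not called under any alternative run, with 0 in every contrast. Of 454 refitted member fold changes 422 kept their direction, though the refits share most of their libraries. At least 1 reversal occurred in 15 of the 27 member results. Gucy1a3 and Arg1 against normal were lower, and the subunit ratio was lower, in every refit run. With 1 library left out the ratio difference ran from -1.30 to -0.94 at 1 h and from -0.99 to -0.60 at 4 h.

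The number of genes called depended on the test. DESeq2 called 702 genes at 1 h, 610 at 4 h and 669 over the 3 groups, and 2, 1 and 2 genes of the wider pathway. Fitting only the groups compared gave 4 and 4 genes. The neuron covariate gave 113 at 4 h and 26 over the 3 groups, no filter gave 11 over the 3 groups, and leaving out the 3 neuron-rich libraries gave 0 there. With 1 library left out the counts ran from 0 to 11 at 1 h, 1 to 14 at 4 h and 0 to 7 over the 3 groups, the lowest without normal replicate 2. With the replicate block the counts were 7 at 4 h and 0 over the 3 groups. Deviations of same-numbered libraries correlated from -0.651 to 0.66 over 9 pairs, and 4 of 9 libraries were closest to their own number. These values show no consistent pairing by replicate number but cannot exclude one, since cell content also differed between libraries. The block also turned Gucy1b3 at 1 h to 0.0013 and Nos3 at 4 h to 0.023.

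Further reversals came with other settings. Library size alone, which moved the median of all genes to -0.149 at 4 h and -0.239 between 4 h and 1 h, gave Gucy1b3 0.053 at 1 h, -0.062 at 4 h and -0.115 between them, and Pde5a -0.047 at 4 h. The neuron covariate gave Prkg1 0.20 and Pde5a 0.57 at 1 h, Ass1 -0.14 at 4 h and Pde5a -0.48 between 4 h and 1 h. Leaving out the 3 neuron-rich libraries was chosen after seeing the data and left 1 library at 1 h. It gave Nos1 0.46, Prkg1 0.53 and Pde5a 0.27 at 1 h and Ass1 -1.15 and Gucy1b3 -0.019 at 4 h. Between 4 h and 1 h it gave Arg1 0.12 and Prkg1 -0.21. It gave -1.18 for Gucy1b3 relative to smooth muscle at 1 h and 1.13 for Nos1 relative to neurons at 4 h. The causes were not tested.

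With 1 library left out, fold changes at 1 h ran from -0.41 to 0.40 for Gucy1b3 and -0.82 to 0.19 for Prkg1. At 4 h they ran from -0.41 to 0.44 for Nos3 (highest without normal replicate 2), -0.45 to 2.21 for Arg2, -1.17 to 1.89 for Ass1 (lowest without replicate 3 at 4 h), -0.33 to 0.48 for Gucy1b3, -0.21 to 0.60 for Prkg1 and -0.40 to 0.54 for Pde5a (lowest without replicate 1 at 4 h). Between 4 h and 1 h they ran from -1.18 to 0.55 for Nos1 (highest without replicate 2 at 1 h) and -0.14 to 0.35 for Gucy1b3. Relative to smooth muscle, Gucy1b3 ran from -0.22 to 1.05 and Prkg1 from -0.20 to 0.41 at 1 h, and Prkg1 from -0.42 to 0.17 at 4 h. Nos1 relative to neurons ran from -2.74 to 1.13 at 4 h. Low counts limit Arg1, Arg2, Nos1 and Nos2.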
